A study of Mus musculus with 45 samples.

Results

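Ileal gene expression was compared between mice that lack FADD together with RIPK3 in intestinal epithelial cells (FADD IEC-KO RIPK3 IEC-KO, 5 mice) and mice that lack FADD in intestinal epithelial cells and ZBP1 in every cell (FADD IEC-KO Zbp1 -/-, 5 mice). These were 10 of the 45 arrays of the study, 1 mouse each, taken by the genotype in the sample titles. They are called RIPK3 double mutants and ZBP1 double mutants here. FADD IEC-KO mice, which keep RIPK3 and ZBP1, and Fadd fl/fl mice, which carry floxed Fadd without deletion (5 mice each), give the scale. All mice were about 11 weeks old, housed free of specific pathogens on a chow diet, and ileum was frozen on dry ice before total RNA was extracted. The driver of the epithelial deletions is not given in the sources used here. Whole ileum also holds cells outside the epithelium, which keep Fadd in every group and Ripk3 in the RIPK3 double mutants, whereas Zbp1 -/- removes ZBP1 from those cells too, so the gene lost and the cells that lost it change together in this comparison.

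FADD is the adaptor that brings caspase-8 to death receptors, and together they hold back necroptosis, a lytic form of cell death. RIPK3 is the kinase that starts necroptosis by phosphorylating MLKL, the protein that breaks the plasma membrane. ZBP1 is an interferon-induced sensor of Z-form nucleic acids and an activator of RIPK3, which other adaptors can also activate. Paneth cells, secretory cells at the base of small intestinal crypts, release alpha-defensins, lysozyme and other antimicrobial proteins, and are lost when epithelial FADD or caspase-8 is absent. The comparison asks how far the ileum differs when necroptosis signalling is cut at the kinase in the epithelium rather than at this sensor.

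The targeted genes were read first. Ripk3 had log2 intensities of 7.47, 7.54, 7.76, 7.33 and 7.38 in the RIPK3 double mutants, against 8.46, 8.71, 9.18, 8.32 and 9.17 in the ZBP1 double mutants. The groups did not overlap, and every RIPK3 double mutant lay lower. Ripk3 differed by -1.27 ± 0.16 (log2 fold change ± SE; limma over all 45 arrays, Benjamini-Hochberg adjusted p = 1.19e-05), which is 2.41-fold lower, with -1.19 among mice with title numbers under 100 and -1.39 among those of 200 and over. Zbp1 had 7.22, 7.23, 7.54, 6.52 and 5.73 in the RIPK3 double mutants, against 6.46, 5.86, 6.02, 5.66 and 6.17 in the ZBP1 double mutants. Only RIPK3 replicate 5 lay within the range of the ZBP1 double mutants, but the difference of 0.81 ± 0.29 did not pass the test (limma, adjusted p = 0.136). The array does not say which part of each gene its probes read, so a transcript that is still made without the deleted part could be detected. Fadd, deleted in both, differed by -0.04 ± 0.17 (limma, adjusted p = 0.954). It lay between 5.84 and 6.27 in the RIPK3 double mutants and between 5.75 and 6.53 in the ZBP1 double mutants. In the arrays labelled FADD IEC-KO it was 7.32, 5.96, 6.31, 6.45 and 6.21 (6.23 ± 0.21 without the first, n = 4), against 7.53 ± 0.06 in Fadd fl/fl (SD, n = 5). The first of them, replicate 1, lay near the floxed control and so goes against its label, and values set against FADD IEC-KO are given with and without it (5 and 4 mice), an alternative added after seeing the data. Leaving it out called 404 genes between the double mutants, against 394 with it.

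**Figure D1:**
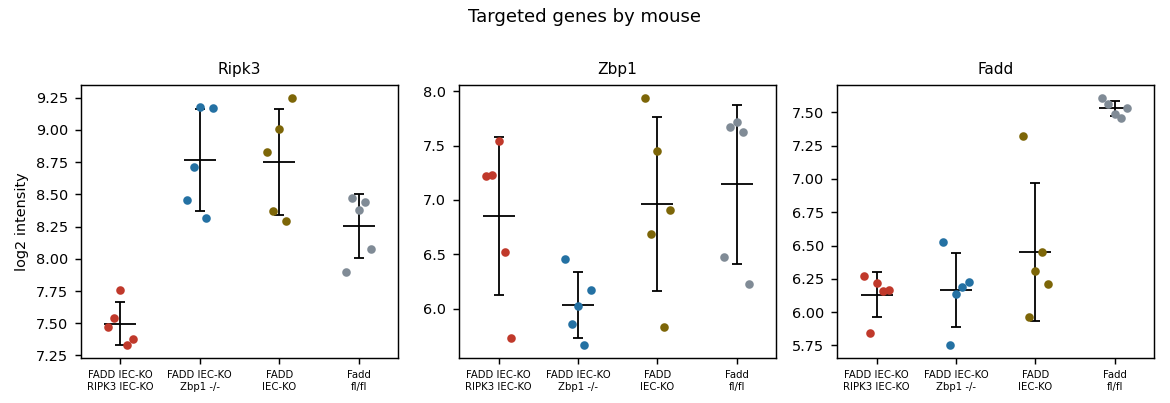
Log2 intensity (vertical axis) of Ripk3, Zbp1 and Fadd in each mouse of the 4 groups (points), with the group mean and SD (bars). Ripk3 separates the RIPK3 double mutants from the ZBP1 double mutants, while Zbp1 overlaps between them and Fadd is low in both beside the 7.53 of Fadd fl/fl. In FADD IEC-KO replicate 1 stands at 7.32, near the floxed control.

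Across 19494 named genes, 394 (2.02%) passed an adjusted p of 0.05 in limma, with 283 (1.45%) higher and 111 (0.569%) lower in the RIPK3 double mutants. At least 2-fold differences were seen in 71 of them, 54 higher and 17 lower. The mice of the groups did not overlap for 490 genes (2.51%), and 215 genes were both called and free of overlap. At an unadjusted p under 0.05 limma found 2999 genes (15.4%), 1831 higher (9.39%) and 1168 lower (5.99%), the shares to hold such counts of gene lists against. Under quantile normalization the calls were 252 higher and 213 lower, so the excess of higher genes is smaller on that scale. All 394 called genes had the same sign among mice with title numbers under 100 and among those of 200 and over, but they were chosen on these same mice. Those numbers, whose meaning the labels do not give, fall equally in both groups (3 under 100 and 2 of 200 and over in each). The calls depended on single mice: 128 genes were called without RIPK3 replicate 5, 133 without RIPK3 replicate 4, 134 without ZBP1 replicate 5 and 250 without ZBP1 replicate 2, and 96 genes (77 higher, 19 lower) passed in all 10 fits that left out a mouse. Fitting only the 10 arrays compared called 68 genes.

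Other measures moved with the groups. Y-linked genes (Kdm5d, Eif2s3y and Uty) were high in 5 of 5 RIPK3 double mutants and in 2 of 5 ZBP1 double mutants (replicates 1 and 5), and the labels do not give sex. An index of circadian genes, genes such as Dbp and Per3 minus genes such as Arntl and Cry1 on the log2 scale, was 0.62, 1.48, 0.50, 1.70 and 1.71 in the RIPK3 double mutants, against 1.05, -1.30, -0.72, -0.39 and -0.67 in the ZBP1 double mutants. The RIPK3 double mutants all lay above 0 and the ZBP1 double mutants below it, except replicate 1. The hour of collection is not given in the sources used here. With this index as a covariate 97 genes were called, 82 of them among the 394. Setting apart the 3 ZBP1 double mutants with low Y-linked genes left 5 against 2 mice, all with high Y-linked genes, and called 516 genes, 197 of them among the 394. Both alternatives were chosen after the data were seen. Of 85 called genes followed through the alternatives, not all of them described here, 25 were still called with the clock covariate and 46 in mice with high Y-linked genes.

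The largest rises were those of alpha-defensins. These are the small antibacterial peptides of Paneth cell granules, encoded by a cluster of near-identical Defa genes on chromosome 8, and probes for them can cross-hybridize, so a single symbol is less certain than the family. The 250 bases before the start of 3 of them are shown (RefSeq, GRCm38.p6; 5′ to 3′ on the gene's strand). Capitals mark each match, on either strand, to CTTTGAT, a T-cell factor (TCF/LEF) type motif whose reverse complement is ATCAAAG. Defa28 (chr8:21582777-21583026, plus strand), Defa2 (chr8:21378267-21378516, plus strand) and Defa43 (chr8:21594466-21594715, minus strand) were chosen to show 1, 2 and 0 matches among genes that all rose.
Defa28: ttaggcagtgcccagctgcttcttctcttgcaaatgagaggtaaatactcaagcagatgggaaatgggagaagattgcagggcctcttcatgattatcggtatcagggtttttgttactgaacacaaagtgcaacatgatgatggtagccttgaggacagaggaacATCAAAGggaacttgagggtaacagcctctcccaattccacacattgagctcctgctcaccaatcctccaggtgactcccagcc
Defa2: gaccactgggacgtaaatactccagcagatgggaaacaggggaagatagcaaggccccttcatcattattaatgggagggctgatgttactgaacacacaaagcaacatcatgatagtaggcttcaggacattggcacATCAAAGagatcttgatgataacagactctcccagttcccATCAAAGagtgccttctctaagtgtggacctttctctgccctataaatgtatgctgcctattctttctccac
Defa43: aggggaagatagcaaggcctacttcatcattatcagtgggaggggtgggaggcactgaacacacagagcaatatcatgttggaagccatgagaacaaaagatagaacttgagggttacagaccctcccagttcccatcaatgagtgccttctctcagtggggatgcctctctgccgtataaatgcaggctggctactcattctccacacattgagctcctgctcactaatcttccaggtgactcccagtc
The window of Defa20 equals that of Defa2 in 250 of 250 bases. A match was found before 11 of the 12 measured Defa genes with a promoter in the table (91.7%) and before 1053 of 32851 mouse promoters (3.21%). The windows of a duplicated family are not independent, and a match is a description of letters.

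Defa34 had log2 intensities of 11.10, 10.97, 10.61, 10.72 and 11.25 in the RIPK3 double mutants, against 8.40, 5.54, 5.78, 7.72 and 6.91 in the ZBP1 double mutants. The groups were far apart, and ZBP1 replicates 2 and 3 were lowest. Defa34 was 16.7-fold higher (4.06 ± 0.60, limma, adjusted p = 6.07e-05), with 4.32 and 3.67 within title numbers under 100 and of 200 and over. Defa26 had 9.96, 9.79, 9.85, 9.77 and 9.92 in the RIPK3 double mutants, against 7.52, 5.75, 5.48, 6.39 and 5.79 in the ZBP1 double mutants, a 12.7-fold rise (3.67 ± 0.50, limma, adjusted p = 4.49e-05). Its values spanned a narrow range in the RIPK3 double mutants and a wide one in the ZBP1 double mutants. Defa2, whose values equal those of Defa33 on every array, had 11.97, 11.76, 11.71, 11.99 and 12.38 in the RIPK3 double mutants, against 10.00, 7.47, 7.42, 9.06 and 8.51 in the ZBP1 double mutants (3.47 ± 0.50, limma, adjusted p = 4.69e-05). Again no mouse overlapped, and ZBP1 replicate 1 came nearest. Defa28, the dimmest of those shown, had 6.58, 7.01, 6.47, 7.20 and 7.97 in the RIPK3 double mutants, against 4.39, 3.03, 3.60, 4.06 and 3.36 in the ZBP1 double mutants (3.36 ± 0.48). Defa43 rose by 3.65 ± 0.53.

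All 22 measured Defa genes, which amount to 19 distinct measurements because some symbols share every value, were called higher without overlap, against 1.45% of all genes called higher. Their log2 fold changes ran between 0.91 and 4.06 with a median of 3.25, beside a median of 0.01 over all genes. The smallest difference was that of Defa27 (0.91 ± 0.23, limma, adjusted p = 0.0254), which was not called without RIPK3 replicate 4 or 5 or ZBP1 replicate 2 or 5 (adjusted p up to 0.106). Among the others, Defa24, one of the brightest, had 12.10, 12.00, 11.85, 12.13 and 12.12 in the RIPK3 double mutants, against 10.84, 9.73, 9.25, 10.29 and 9.24 in the ZBP1 double mutants. Defa24 rose by 2.17 ± 0.39, and no mouse of the groups overlapped. With the clock index as a covariate 21 of the 22 were called (97 of all 19494 genes), and in mice with high Y-linked genes 20 (516 of all 19494 genes). Defa34 then differed by 3.20 (limma, adjusted p = 0.00295) and 3.28 (adjusted p = 0.0179).

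The single knockout and the floxed control place these levels. Averaged over the 14 listed alpha-defensins, which amount to 12 distinct measurements, the log2 level was 11.08, 10.78, 10.78, 10.98 and 11.25 in the RIPK3 double mutants. It was 9.02, 6.96, 6.88, 8.36 and 7.62 in the ZBP1 double mutants, 8.92 ± 0.95 in FADD IEC-KO and 11.65 ± 0.19 in Fadd fl/fl (SD, n = 5 each). Every RIPK3 double mutant lay above every mouse of the single knockout, and below every Fadd fl/fl mouse, whereas the ZBP1 double mutants averaged lower than the single knockout and overlapped with it. Without FADD IEC-KO replicate 1, which had the highest level of its group (10.12), the single knockout averaged 8.62 ± 0.78 (n = 4). Defa34 in the RIPK3 double mutants differed by 2.44 from FADD IEC-KO (limma, adjusted p = 0.0273; 2.83 and 0.0123 without replicate 1) and by -0.78 from Fadd fl/fl (adjusted p = 0.608). In the ZBP1 double mutants it differed by -1.62 from FADD IEC-KO (limma, adjusted p = 0.127; -1.23 and 0.309 without replicate 1) and by -4.84 from Fadd fl/fl (adjusted p = 4.1e-07). Of the 22 Defa genes, 18 were called higher in RIPK3 double mutants than in FADD IEC-KO (0.831% of all genes) and 1 lower than in Fadd fl/fl (0.662%). For ZBP1 double mutants 1 was called lower than in FADD IEC-KO (2.47%) and 22 lower than in Fadd fl/fl (7.08%). Without FADD IEC-KO replicate 1, 20 were called higher in RIPK3 double mutants than in the single knockout (205 of all 19494 genes). The single call in ZBP1 double mutants was lost. These contrasts share mice and are not independent of each other.

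**Figure D2:**
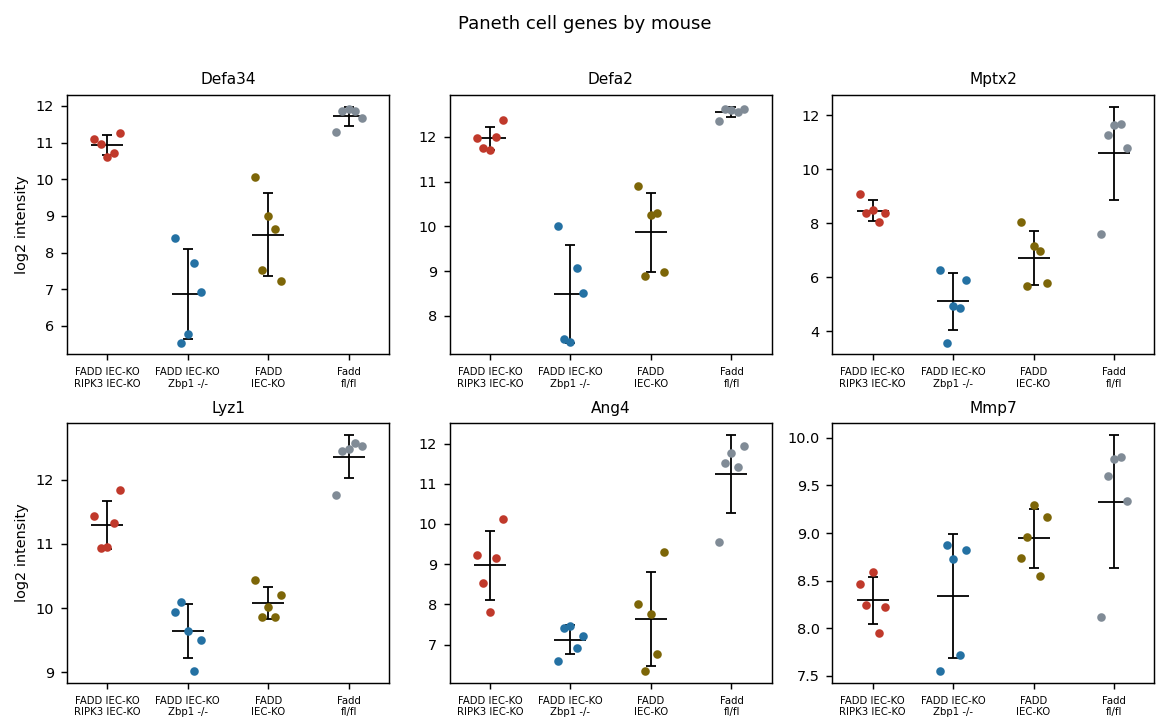
Log2 intensity (vertical axis) of 6 Paneth cell genes in each mouse of the 4 groups (points), with the group mean and SD (bars). Defa34, Defa2, Mptx2 and Lyz1 lie higher in every RIPK3 double mutant than in any ZBP1 double mutant, Ang4 does so without passing the test (adjusted p = 0.0591), and Mmp7 overlaps.

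Among Paneth cell products other than alpha-defensins, the pentraxins Mptx1 and Mptx2, Lyz1, Clps, Itln1 and Pnliprp2 rose. They were the 6 called higher of 19 measured, against 1.45% of all genes, with 0 called lower. Of the 19, 17 lay above 0, and the median was 0.44. Their mean log2 level was 8.17 ± 0.27 in the RIPK3 double mutants and 7.28 ± 0.05 in the ZBP1 double mutants. It was 9.2 ± 0.55 in Fadd fl/fl (SD, n = 5 each), where replicate 1 (8.24) lay within the range of the RIPK3 double mutants and the rest above it. In FADD IEC-KO the mean level was 7.77 ± 0.12 (7.64 to 7.91). That range lay above every ZBP1 double mutant (7.22 to 7.35) and overlapped with the RIPK3 double mutants (7.85 to 8.54). Set against FADD IEC-KO, 1 of the 19 was called higher in RIPK3 double mutants (0.831% of all genes). In ZBP1 double mutants 2 were called lower (2.47%). Values without FADD IEC-KO replicate 1 (7.9) are not given for this list. Set against Fadd fl/fl, 7 of the 19 were called lower in RIPK3 double mutants (0.662% of all genes) and 15 in ZBP1 double mutants (7.08%). Mptx2, a mucosal pentraxin, had 9.08, 8.38, 8.49, 8.03 and 8.37 in the RIPK3 double mutants, against 6.27, 3.57, 4.92, 4.87 and 5.90 in the ZBP1 double mutants. It was 10.3-fold higher without overlap (3.36 ± 0.65, limma, adjusted p = 0.00202). Lyz1, the lysozyme of Paneth cells, had 11.44, 10.93, 10.96, 11.32 and 11.84 in the RIPK3 double mutants, against 9.94, 10.09, 9.65, 9.02 and 9.51 in the ZBP1 double mutants. That is 3.16-fold higher without overlap (1.66 ± 0.32, limma, adjusted p = 0.00232), while Fadd fl/fl averaged 12.36. Mptx1, a second pentraxin, rose by 3.02 ± 0.73 and Itln1, a carbohydrate-binding intelectin, by 1.34 ± 0.32. Clps, the lipase cofactor colipase, rose by 1.85 ± 0.39, and the lipase gene Pnliprp2 by 1.38 ± 0.31. Ang4, an antimicrobial ribonuclease, had 9.22, 8.54, 7.81, 9.16 and 10.12 in the RIPK3 double mutants, against 6.60, 7.41, 7.45, 6.91 and 7.21 in the ZBP1 double mutants. Its groups did not overlap, but 1.85 ± 0.54 did not pass (limma, adjusted p = 0.0591), except without RIPK3 replicate 3 (2.14, adjusted p = 0.0355).

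Mmp7, the metalloprotease that cuts mouse alpha-defensin precursors into active peptides, differed by -0.05 ± 0.25 (limma, adjusted p = 0.958). It had 8.47, 8.24, 8.59, 7.95 and 8.22 in the RIPK3 double mutants, against 7.55, 8.88, 8.73, 7.72 and 8.82 in the ZBP1 double mutants. ZBP1 replicates 1 and 4 lay below every RIPK3 double mutant and the other three above, so no level of Mmp7 marks either group. In bulk tissue, fewer Paneth cells and less RNA per Paneth cell cannot be told apart. Calls on this list moved with single mice and covariates: 3 of 19 were called without RIPK3 replicate 5, 2 in mice with high Y-linked genes and 1 with the clock covariate. Over all 19494 genes those settings called 128, 516 and 97. Mptx1 was not called without RIPK3 replicate 5 (2.92, adjusted p = 0.0684) or ZBP1 replicate 2 (2.69, 0.0689). Itln1 was not without RIPK3 replicate 4 (1.33, 0.0588) or 5 (1.17, 0.0941), nor Pnliprp2 without RIPK3 replicate 5 (1.12, 0.076) or ZBP1 replicate 5 (1.23, 0.0608).

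Gasdermin C genes, a family of pore-forming proteins encoded side by side and expressed in gut epithelium, also rose, with all 4 measured members called higher, against 1.45% of all genes. Gsdmc2 had 8.83, 8.96, 8.58, 8.59 and 8.05 in the RIPK3 double mutants, against 7.02, 6.60, 7.51, 7.70 and 6.05 in the ZBP1 double mutants. It was 3.08-fold higher without overlap (1.62 ± 0.33, limma, adjusted p = 0.00453). Gsdmc3 rose by 1.57 ± 0.35, Gsdmc4 by 1.56 ± 0.34 and Gsdmc by 1.53 ± 0.33, the last with overlap through ZBP1 replicate 4. Their mean log2 level was 8.49, 8.55, 8.14, 8.28 and 7.59 in the RIPK3 double mutants, against 6.46, 6.31, 7.22, 7.44 and 5.77 in the ZBP1 double mutants, 6.68 ± 0.96 in FADD IEC-KO and 8.54 ± 0.21 in Fadd fl/fl (SD, n = 5 each). Among RIPK3 double mutants 2 of 5 lay within the range of Fadd fl/fl (8.34 to 8.83) and the others below it, and FADD IEC-KO replicate 1 (8.10) lay above every ZBP1 double mutant. Without it the single knockout averaged 6.33 ± 0.63 (n = 4). Without ZBP1 replicate 5, Gsdmc3 (1.34, adjusted p = 0.0738) and Gsdmc4 (1.29, 0.068) were not called. With the clock covariate 0 of 4 were, where Gsdmc2 differed by 1.43 (limma, adjusted p = 0.0566). In mice with high Y-linked genes 4 of 4 were called (516 of all 19494 genes). The wider list of inflammasome, gasdermin and interleukin-1 genes had 3 of 27 higher (1.45% of all genes) and 1 lower (0.569%), with a median of -0.06.

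**Figure D3:**
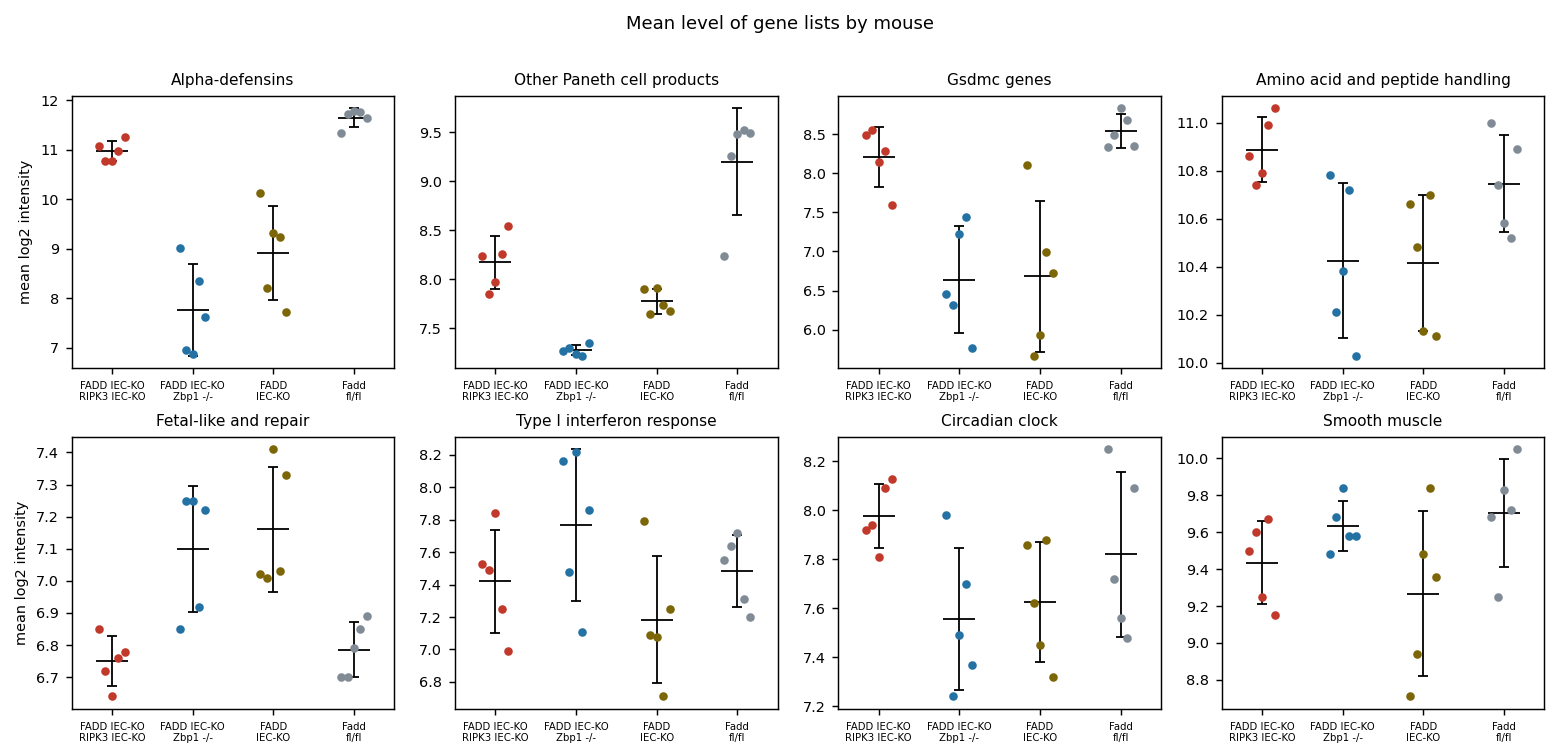
Mean log2 level over the measured members of 8 gene lists (vertical axis) in each mouse of the 4 groups (points), with the group mean and SD (bars). Alpha-defensins, other Paneth cell products and Gsdmc genes separate the RIPK3 double mutants from the ZBP1 double mutants. Amino acid and peptide, interferon, clock and smooth muscle genes overlap, and repair genes meet at 6.85.

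Some absorptive cell genes for amino acids and peptides rose, namely Cps1, Otc, Slc7a8, Slc6a20a and Slc15a1. They were the 5 called higher of 17 measured, against 1.45% of all genes, with 0 called lower. Of the 17, 16 lay above 0, and the median was 0.43. The mean level of the list overlapped, at 10.74 to 11.06 in the RIPK3 double mutants and 10.03 to 10.78 in the ZBP1 double mutants. It was 10.42 ± 0.28 in FADD IEC-KO and 10.75 ± 0.2 in Fadd fl/fl (SD, n = 5 each). Values without FADD IEC-KO replicate 1 (10.66) are not given for this list. Cps1, the mitochondrial enzyme that makes carbamoyl phosphate, had 9.96, 9.73, 10.04, 10.31 and 10.26 in the RIPK3 double mutants, against 9.13, 9.41, 9.61, 9.47 and 8.96 in the ZBP1 double mutants. The groups did not overlap, and Cps1 passed in every fit that left out a mouse (0.74 ± 0.12, limma, adjusted p = 0.00014). Otc, which acts after Cps1 in citrulline synthesis, rose by 0.62 ± 0.15 (adjusted p = 0.0157). Slc7a8, a neutral amino acid transporter, had 9.48, 8.89, 9.13, 9.97 and 9.77 in the RIPK3 double mutants, against 8.87, 7.95, 8.35, 8.85 and 8.04 in the ZBP1 double mutants (1.04 ± 0.24, adjusted p = 0.0138). The lowest RIPK3 double mutant was barely above the highest ZBP1 double mutant. Slc6a20a, an imino acid transporter, rose by 1.27 ± 0.35 (adjusted p = 0.0431) and Slc15a1, the peptide transporter PEPT1, by 0.68 ± 0.18 (adjusted p = 0.0352). In mice with high Y-linked genes 2 of 17 were called (516 of all 19494 genes). The count fell to 1 of 17 without RIPK3 replicate 4, without RIPK3 replicate 5, without ZBP1 replicate 5 and with the clock covariate, and to 0 in a fit of the 10 arrays compared. Over all 19494 genes those settings called 133, 128, 134, 97 and 68. Slc6a20a (adjusted p up to 0.208) and Slc15a1 (up to 0.15) were lost without RIPK3 replicate 1, 4 or 5 or ZBP1 replicate 2, 3 or 5. Slc7a8 was lost without RIPK3 replicate 4 or 5 or ZBP1 replicate 2 or 5 (up to 0.0772), and Otc without RIPK3 replicate 4 or 5 or ZBP1 replicate 5 (up to 0.0902).

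Some genes outside that list, chosen after their values were seen except for Slc30a2, were called in every fit that left out a mouse. Hao2, a peroxisomal oxidase of 2-hydroxy acids, had 7.37, 7.0, 7.02, 7.97 and 7.82 in the RIPK3 double mutants, against 5.25, 4.86, 5.24, 6.60 and 5.27 in the ZBP1 double mutants. It was 3.98-fold higher without overlap (1.99 ± 0.33, limma, adjusted p = 0.0003). Serpina1b, a protease inhibitor of the alpha-1-antitrypsin family, had 7.69, 6.92, 7.06, 8.46 and 9.0 in the RIPK3 double mutants, against 6.23, 4.92, 6.0, 6.78 and 4.84 in the ZBP1 double mutants (2.07 ± 0.38, limma, adjusted p = 0.00118). It did not overlap either, and its close relative Serpina1a rose by 1.58 ± 0.32, though near-identical members cannot be read apart with certainty. Slc16a10, a transporter of aromatic amino acids, had 9.03, 8.63, 8.58, 9.36 and 9.59 in the RIPK3 double mutants, against 8.12, 7.02, 6.91, 8.86 and 7.02 in the ZBP1 double mutants. Only ZBP1 replicate 4 reached the range of the RIPK3 double mutants (1.45 ± 0.31, limma, adjusted p = 0.00804). Slc1a1, a glutamate transporter, rose by 0.90 ± 0.17, and Ugt2b5, a glucuronosyltransferase, by 1.57 ± 0.30. Clcn5, an endosomal chloride transporter, rose by 1.09 ± 0.17 (limma, adjusted p = 7.29e-05). Slc30a2, a zinc transporter, rose by 1.16 ± 0.18 (limma, adjusted p = 0.000131). With the clock covariate Hao2 (1.59, adjusted p = 0.0143), Serpina1b (1.59, 0.0396), Clcn5 (0.75, 0.00234) and Slc30a2 (0.89, 0.00702) were called, and Slc16a10 (0.96, 0.136), Slc1a1 (0.64, 0.0605), Ugt2b5 (1.20, 0.0521) and Serpina1a (1.14, 0.092) were not. In mice with high Y-linked genes all 8 were called (adjusted p up to 0.0475).

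Of 22 genes of lipid absorption, 0 were called higher (1.45% of all genes) and 3 lower (0.569%), namely Apoa4, Dgat2 and Mogat2. The 22 had a median of -0.03, and 1 of the 22 was higher at an unadjusted p under 0.05 in limma (9.39% of all genes). With the clock covariate, and in mice with high Y-linked genes, none of the 3 was called (adjusted p between 0.0666 and 0.268). Apoa4, an apolipoprotein of chylomicrons, had 9.95, 10.64, 10.20, 8.99 and 9.14 in the RIPK3 double mutants, against 11.52, 11.39, 11.08, 10.54 and 10.89 in the ZBP1 double mutants (-1.30 ± 0.35, limma, adjusted p = 0.0398). The ranges met only at RIPK3 replicate 2 and ZBP1 replicate 4, but 7 of the 10 fits that left out a mouse lost the call, which was kept only without RIPK3 replicate 2 or 3 or ZBP1 replicate 4. Without RIPK3 replicate 4 the difference was -1.10 (adjusted p = 0.17). Dgat2 and Mogat2, which build triglyceride, each differed by -0.37. Dgat2 was lost without RIPK3 replicate 1, 3 or 4 or ZBP1 replicate 2, 3 or 5 (adjusted p up to 0.127), and Mogat2 was kept only without RIPK3 replicate 5 or ZBP1 replicate 3 (adjusted p up to 0.145 otherwise). Sugar digestion and transport had 1 of 15 called higher (1.45% of all genes), Mgam, a disaccharidase (0.36 ± 0.10), and a median of 0.36. Of the 15, 13 lay above 0, and 7 had an unadjusted p under 0.05 in limma (15.4% of all genes), 0 of them lower. The call of Mgam was lost without RIPK3 replicate 3, 4 or 5 or ZBP1 replicate 2, 3 or 5 (adjusted p up to 0.173). Mgam was also lost with the clock covariate (0.18, 0.369) and in mice with high Y-linked genes (0.30, 0.217). Genes of ileal identity, the check of the labelled tissue, averaged 11.56 to 11.65 in the RIPK3 double mutants and 11.51 to 11.64 in the ZBP1 double mutants. None of those 14 was called, 2 had an unadjusted p under 0.05 in limma, and Fabp6, the ileal bile acid binding protein, lay between 12.61 and 12.72 in the RIPK3 double mutants and between 12.45 and 12.95 in the ZBP1 double mutants.

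**Figure D4:**
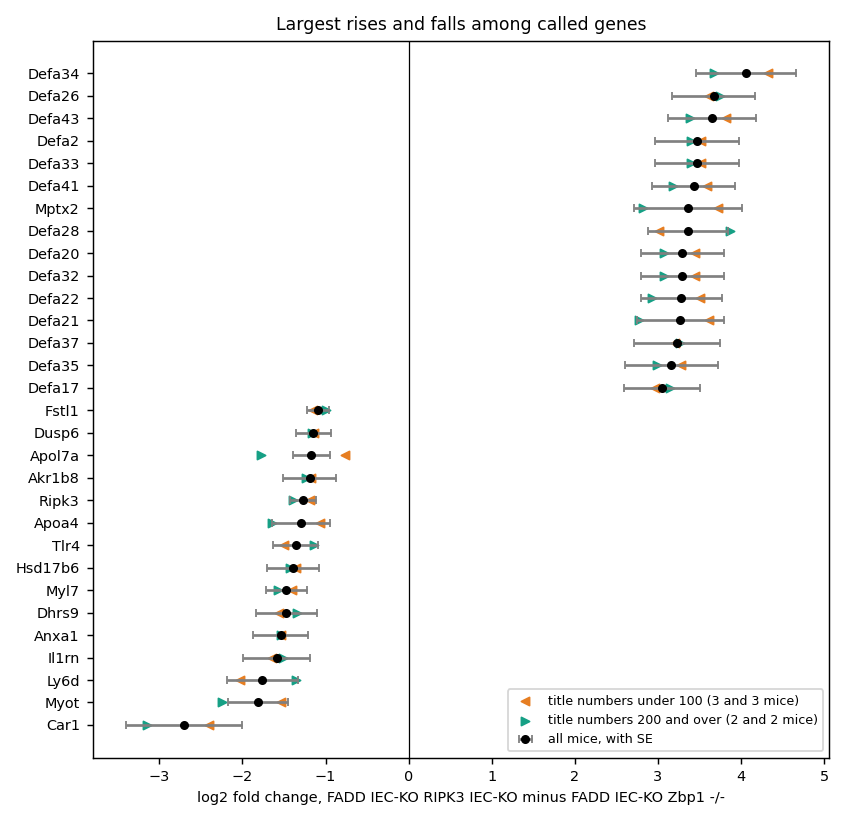
Log2 fold change, RIPK3 double mutants minus ZBP1 double mutants (horizontal axis, with SE), of the 15 largest rises and the 15 largest falls among called genes, with the value within each series of title numbers as separate marks. Rises up to 4.06 are alpha-defensins and Mptx2, falls reach -2.70 at Car1, and both series of title numbers lie on the same side of 0.

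The genes lower in the RIPK3 double mutants included Fstl1, members of the fetal-like and repair list, and Car1. Fstl1, a secreted follistatin-like glycoprotein, had the smallest adjusted p of any gene: 7.83, 7.46, 7.44, 7.62 and 7.62 in the RIPK3 double mutants, against 8.89, 8.87, 8.43, 8.61 and 8.63 in the ZBP1 double mutants. The groups did not overlap, and Fstl1 was 2.14-fold lower (-1.09 ± 0.13, limma, adjusted p = 1.53e-06), with -1.15 and -1.0 within title numbers under 100 and of 200 and over, -1.08 with the clock covariate (adjusted p = 4.06e-05) and -1.17 in mice with high Y-linked genes (adjusted p = 0.00014). FADD IEC-KO (8.15 ± 0.12) and Fadd fl/fl (8.05 ± 0.16; SD, n = 5 each) lay between them. Fstl1 differed from FADD IEC-KO by -0.55 in RIPK3 double mutants (limma, adjusted p = 0.0172) and by 0.54 in ZBP1 double mutants (adjusted p = 0.0121), in opposite directions. Without FADD IEC-KO replicate 1 these were -0.52 (adjusted p = 0.0333) and 0.57 (adjusted p = 0.0147).

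Anxa1, an annexin raised in regenerating epithelium, had 7.14, 6.82, 7.01, 7.05 and 6.98 in the RIPK3 double mutants, against 7.32, 9.17, 9.11, 7.59 and 9.54 in the ZBP1 double mutants. No mouse overlapped, but ZBP1 replicates 1 and 4 lay near the RIPK3 double mutants (-1.54 ± 0.33, limma, adjusted p = 0.00784; without ZBP1 replicate 5, -1.30 and 0.0585). Dusp6, a phosphatase induced by and acting on ERK, had 8.25, 7.71, 8.32, 8.12 and 7.64 in the RIPK3 double mutants, against 8.95, 9.25, 9.50, 8.60 and 9.48 in the ZBP1 double mutants. Its groups did not overlap, and the call held in every fit that left out a mouse (-1.15 ± 0.21, limma, adjusted p = 0.00144). Tlr4, the lipopolysaccharide receptor, had 5.90, 5.96, 6.16, 6.71 and 6.16 in the RIPK3 double mutants, against 6.23, 8.05, 8.23, 7.36 and 7.80 in the ZBP1 double mutants. Only ZBP1 replicate 1 overlapped (-1.36 ± 0.27, limma, adjusted p = 0.00287). Il1rn, the interleukin-1 receptor antagonist, had 6.25, 5.73, 5.87, 5.89 and 6.69 in the RIPK3 double mutants, against 5.89, 8.51, 8.38, 7.14 and 8.47 in the ZBP1 double mutants, with the same mouse overlapping. Il1rn differed by -1.59 ± 0.40 (limma, adjusted p = 0.0254) and was not called without RIPK3 replicate 4 or ZBP1 replicate 2, 3 or 5 (adjusted p up to 0.118). Dusp6 was called with the clock covariate (-0.75, 0.0451), but Anxa1 (-0.96, 0.136), Tlr4 (-0.92, 0.073) and Il1rn (-0.90, 0.28) were not. It was also called in mice with high Y-linked genes (-1.21, 0.0179), where Anxa1 (-1.43, 0.0702), Tlr4 (-0.84, 0.173) and Il1rn (-1.09, 0.269) were not.

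The list of fetal-like and repair genes had 4 of 20 lower and 0 higher with a median of -0.21, against 0.569% of all genes lower. Its called members were Ly6d, Anxa1, S100a6 and Anxa3. S100a6, a calcium-binding protein, differed by -0.95 ± 0.19 and Anxa3, another annexin, by -0.81 ± 0.19 (without ZBP1 replicate 5, -0.70, adjusted p = 0.086). Ly6d, a surface protein, had 6.87, 6.99, 6.91, 6.81 and 6.94 in the RIPK3 double mutants, against 8.20, 9.42, 9.25, 6.71 and 9.73 in the ZBP1 double mutants (-1.76 ± 0.43, limma, adjusted p = 0.0222). ZBP1 replicate 4 lay below every RIPK3 double mutant, and the call was lost without RIPK3 replicate 4 or 5 or ZBP1 replicate 2, 3 or 5 (adjusted p up to 0.11). The mean level of the list was 6.85, 6.72, 6.64, 6.76 and 6.78 in the RIPK3 double mutants, against 6.85, 7.25, 7.25, 6.92 and 7.22 in the ZBP1 double mutants, 7.16 ± 0.19 in FADD IEC-KO and 6.79 ± 0.09 in Fadd fl/fl (SD, n = 5 each). Without FADD IEC-KO replicate 1 the single knockout averaged 7.19 ± 0.20 (n = 4). Thus 3 of 5 ZBP1 double mutants carried the higher level. With the clock covariate, and in a fit of the 10 arrays alone, 0 of 20 were called, and 1 was called without ZBP1 replicate 5 or in mice with high Y-linked genes. Over all 19494 genes, 134 were called without ZBP1 replicate 5 and 516 in mice with high Y-linked genes.

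Car1, a carbonic anhydrase abundant in colon epithelium, had the largest fall among called genes. It had 6.72, 6.58, 6.12, 5.64 and 7.03 in the RIPK3 double mutants, against 7.25, 9.45, 9.90, 8.47 and 10.50 in the ZBP1 double mutants. The groups did not overlap, and FADD IEC-KO, at 9.23 ± 2.39 (SD, n = 5), varied more than either (8.98 ± 2.68 without replicate 1, n = 4). Car1 was 6.49-fold lower (-2.70 ± 0.70, limma, adjusted p = 0.0312) but was lost without RIPK3 replicate 3, 4 or 5 or ZBP1 replicate 2, 3 or 5, with -2.35 and an adjusted p of 0.135 without the last of these. Dhrs9, a retinol dehydrogenase, had 4.40, 4.40, 4.48, 4.39 and 4.45 in the RIPK3 double mutants, against 5.25, 6.36, 6.34, 4.97 and 6.56 in the ZBP1 double mutants (-1.47 ± 0.37, limma, adjusted p = 0.0235). It did not overlap, and its call was lost without RIPK3 replicate 4 or 5 or ZBP1 replicate 2, 3 or 5 (adjusted p up to 0.105). Hsd17b6, a hydroxysteroid dehydrogenase, differed by -1.39 ± 0.31 (without RIPK3 replicate 5, -1.25, adjusted p = 0.0575), and Akr1b8, an aldo-keto reductase, by -1.19 ± 0.32 with the call kept only without RIPK3 replicate 3 or ZBP1 replicate 1 or 4 (without ZBP1 replicate 5, -1.05, adjusted p = 0.155). Apol7a, an apolipoprotein L gene, differed by -1.17 ± 0.22 (limma, adjusted p = 0.00202). Myot and Myl7, known as muscle genes, differed by -1.81 ± 0.36 and -1.47 ± 0.25, while smooth muscle genes as a list had 0 of 18 called and 3 lower at an unadjusted p under 0.05 in limma (5.99% of all genes). Of those 18, 16 lay below 0, and the median was -0.24. The mean level of the list was 9.50, 9.60, 9.25, 9.67 and 9.15 in the RIPK3 double mutants, against 9.48, 9.68, 9.84, 9.58 and 9.58 in the ZBP1 double mutants, which overlaps. Myl7 was called with the clock covariate (-1.20, 0.0143), and Car1 (-2.10, 0.216), Dhrs9 (-0.87, 0.26), Hsd17b6 (-1.22, 0.0873), Akr1b8 (-0.66, 0.353), Apol7a (-0.82, 0.0604) and Myot (-1.42, 0.062) were not. In mice with high Y-linked genes Myl7 (-1.47, 0.0121), Myot (-2.17, 0.00926) and Hsd17b6 (-1.43, 0.0494) were called, and Car1 (-2.46, 0.15), Dhrs9 (-1.48, 0.0888), Akr1b8 (-1.23, 0.112) and Apol7a (-1.03, 0.0501) were not. Nox1, an epithelial oxidase that makes superoxide, differed by -1.84 ± 0.57 and did not pass (limma, adjusted p = 0.0815), except without ZBP1 replicate 1 (-2.18, 0.0372) or 4 (-2.25, 0.026).

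Interferon-induced genes, a family that includes Zbp1, included 1 call, lower in the RIPK3 double mutants. Of 44 measured, 40 lay below 0 with a median of -0.33, and 1 was called lower (0.569% of all genes) while 19 were lower at an unadjusted p under 0.05 in limma (5.99% of all genes). The called member was Oas2, an antiviral oligoadenylate synthetase, with 6.14, 5.61, 5.76, 5.46 and 5.49 in the RIPK3 double mutants, against 6.92, 5.99, 6.58, 5.76 and 6.81 in the ZBP1 double mutants (-0.72 ± 0.20, limma, adjusted p = 0.0486). Its ranges overlapped, and the call was kept only without RIPK3 replicate 1 or ZBP1 replicate 2 or 4, with -0.62 and an adjusted p of 0.188 without ZBP1 replicate 5. Isg15, a ubiquitin-like protein, had 6.09, 6.44, 6.49, 5.31 and 5.57 in the RIPK3 double mutants, against 7.67, 6.67, 7.62, 5.87 and 6.98 in the ZBP1 double mutants. ZBP1 replicate 4 lay among the RIPK3 double mutants, and -0.98 ± 0.28 did not pass (limma, adjusted p = 0.0559), except in some alternatives such as without ZBP1 replicate 4 (-1.25, 0.0068), without RIPK3 replicate 2 (-1.10, 0.0348) and without RIPK3 replicate 3 (-1.11, 0.0384). The mean level of the list was 7.53, 7.49, 7.84, 7.25 and 6.99 in the RIPK3 double mutants, against 8.16, 7.48, 8.22, 7.11 and 7.86 in the ZBP1 double mutants, 7.18 ± 0.39 in FADD IEC-KO and 7.48 ± 0.22 in Fadd fl/fl (SD, n = 5 each). ZBP1 replicates 1, 3 and 5 were high, whereas 2 and 4 were not. The count of called members was 0 to 11 over the settings tried, with 11 without ZBP1 replicate 4, 7 without RIPK3 replicate 3, and 0 without RIPK3 replicate 4 or 5 or ZBP1 replicate 1, 3 or 5. Over all 19494 genes, 539 were called without ZBP1 replicate 4 and 372 without RIPK3 replicate 3. Oas2 was not called with the clock covariate (-0.71, 0.156), nor was any of the 44. In mice with high Y-linked genes 5 were called (516 of all 19494 genes), among them Oas2 (-1.17, 0.00859) and Isg15 (-1.34, 0.0384). Set against FADD IEC-KO, Isg15 differed by 0.51 in RIPK3 double mutants (limma, adjusted p = 0.411) and by 1.49 in ZBP1 double mutants (adjusted p = 0.00264), where 9 of the 44 genes were called higher (0.857% of all genes). Without FADD IEC-KO replicate 1, whose mean level of the list was the highest of its group (7.79), those differences were 0.63 (limma, adjusted p = 0.319) and 1.61 (adjusted p = 0.00284). In that fit 4 of the 44 were called higher in RIPK3 double mutants (205 of all 19494 genes). In ZBP1 double mutants 21 of the 44 were (174 of all 19494 genes). These contrasts share the FADD IEC-KO mice.

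Related immune lists gave few calls. Guanylate-binding proteins and immunity-related GTPases, induced by interferon-gamma, had 0 of 18 called, 17 below 0 and a median of -0.47, with 4 lower at an unadjusted p under 0.05 in limma (5.99% of all genes). MHC class I processing genes had 0 of 15 called and a median of -0.22, with 3 lower at that level, and B2m, the light chain of MHC class I, differed by -0.16 (limma, adjusted p = 0.449). Of 24 genes of the NF-kB and TNF response, 1 was called lower (0.569% of all genes), the neutrophil-attracting chemokine Cxcl1. It differed by -0.51 ± 0.13 (limma, adjusted p = 0.0356). Its call was lost without RIPK3 replicate 1, 3 or 4 or ZBP1 replicate 2, 3 or 5 (adjusted p up to 0.123). Cxcl1 was not called with the clock covariate (-0.52, 0.103) or in mice with high Y-linked genes (-0.43, 0.198). Macrophage and complement genes had 2 of 18 higher (1.45% of all genes), Timd4 and Lyz2. Timd4, a receptor of resident macrophages, rose by 0.45 ± 0.12 (limma, adjusted p = 0.0406). Lyz2, a macrophage lysozyme close in sequence to Lyz1, rose by 1.11 ± 0.31 (limma, adjusted p = 0.0495). Innate lymphoid genes had 1 of 9 higher (1.45% of all genes), Klrb1b, a lectin-like receptor (0.63 ± 0.17, limma, adjusted p = 0.0343). None of these 3 was called with the clock covariate or in mice with high Y-linked genes (adjusted p between 0.0698 and 0.251). Timd4 was lost without RIPK3 replicate 1, 3 or 5 or ZBP1 replicate 3 or 5 (adjusted p up to 0.132), Lyz2 without RIPK3 replicate 1, 4 or 5 or ZBP1 replicate 2, 4 or 5 (up to 0.208) and without FADD IEC-KO replicate 1, and Klrb1b without RIPK3 replicate 3, 4 or 5 or ZBP1 replicate 2, 3 or 5 (up to 0.151). Neutrophil (0 of 16 called, 2 at an unadjusted p under 0.05, against 15.4% of all genes), T and intraepithelial lymphocyte (0 of 24, 0), B cell (0 of 13, 0) and plasma cell markers (0 of 9, 1) gave no call in limma. The necroptosis and death receptor list of 22 had 1 called, Ripk3 itself. Mlkl, next in the pathway, had 8.91, 8.76, 9.36, 8.52 and 8.25 in the RIPK3 double mutants, against 9.34, 9.22, 9.77, 8.51 and 9.55 in the ZBP1 double mutants. Its ranges overlapped and -0.52 ± 0.19 did not pass (limma, adjusted p = 0.162), except without ZBP1 replicate 4 (-0.71, 0.0313). Casp8 differed by 0.26 ± 0.14 (limma, adjusted p = 0.35).

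Among other epithelial lineages Gcg, Rgs13, Klk1 and Slc12a8 rose. Gcg, which encodes glucagon-like peptides of enteroendocrine L cells, had 8.91, 8.75, 8.81, 9.23 and 9.29 in the RIPK3 double mutants, against 8.11, 7.99, 8.17, 8.60 and 7.38 in the ZBP1 double mutants. It was higher without overlap (0.95 ± 0.19, limma, adjusted p = 0.004) and was the only call among 19 enteroendocrine genes. Rgs13, a tuft cell marker, had 6.43, 6.21, 6.20, 6.65 and 6.92 in the RIPK3 double mutants, against 5.03, 4.92, 6.17, 6.13 and 4.74 in the ZBP1 double mutants (1.08 ± 0.24, limma, adjusted p = 0.00971). Its groups only just separated, it was lost without RIPK3 replicate 5 (0.97, 0.0586) or ZBP1 replicate 5 (0.92, 0.068), and it was the only call among 15 tuft cell genes. Goblet cell genes had 2 of 17 higher, Klk1, a kallikrein (0.71 ± 0.16), and Slc12a8 (0.46 ± 0.12). Over all genes 1.45% were called higher. Klk1 was lost without RIPK3 replicate 4 (0.65, 0.0519) or ZBP1 replicate 5 (0.56, 0.0796), and Slc12a8 was kept only without RIPK3 replicate 2 or 3 or ZBP1 replicate 3, with 0.39 and an adjusted p of 0.168 without RIPK3 replicate 4. Gcg (0.79, 0.0638), Rgs13 (0.96, 0.0872), Klk1 (0.59, 0.0984) and Slc12a8 (0.45, 0.136) were not called with the clock covariate. In mice with high Y-linked genes Gcg (1.25, 0.00576), Rgs13 (1.60, 0.00366) and Klk1 (0.99, 0.00715) were, and Slc12a8 was not (0.54, 0.0651). Stem cell (0 of 13 called, median 0.04, 1 at an unadjusted p under 0.05, against 15.4% of all genes) and proliferation genes (0 of 20, median 0.08, 2 at that level) gave no call in limma.

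Circadian genes gave no call either: 0 of 19 in limma, although 12 had an unadjusted p under 0.05 (15.4% of all genes), 15 lay above 0 and the median was 0.54. Dbp, a clock-controlled transcription factor, had 10.28, 10.60, 10.05, 10.92 and 10.99 in the RIPK3 double mutants, against 10.50, 7.06, 7.89, 9.22 and 8.12 in the ZBP1 double mutants. Apart from ZBP1 replicate 1 the groups did not overlap, and Dbp was called without that mouse (2.50, adjusted p = 0.0389) but not with it (2.01 ± 0.67, adjusted p = 0.105). Without ZBP1 replicate 1, 3 of the 19 were called (486 of all 19494 genes). Adipoq, an adipocyte marker, lay between 3.86 and 7.42 in the RIPK3 double mutants and between 6.47 and 7.92 in the ZBP1 double mutants, with RIPK3 replicates 4 and 5 low. The adipocyte list had 0 of 11 called and a median of -0.49, with 3 lower at an unadjusted p under 0.05 in limma (5.99% of all genes). The part of clock phase, sex and attached fat in the differences above was not tested beyond the values given.

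**Figure D5:**
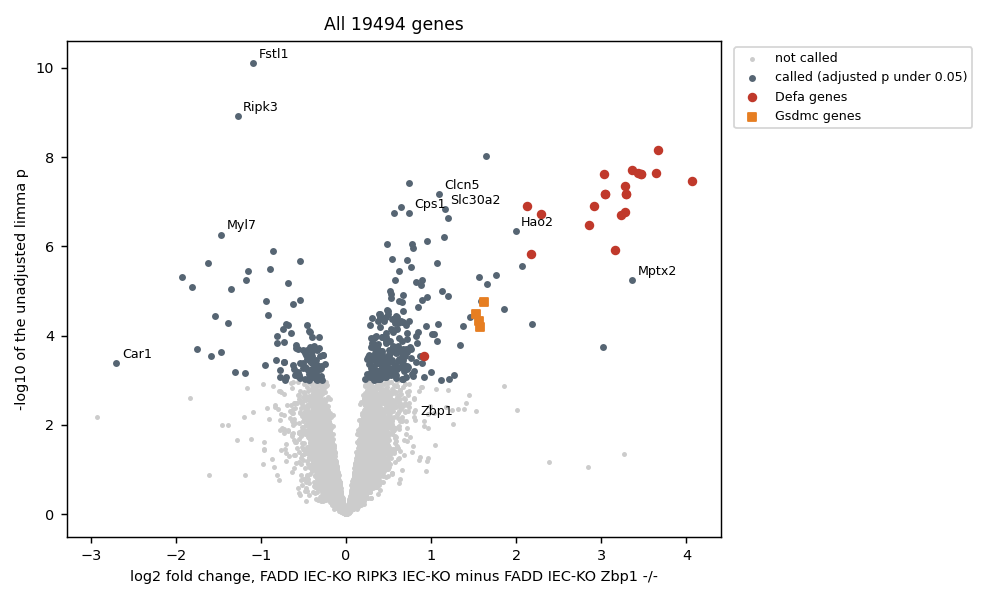
Log2 fold change, RIPK3 double mutants minus ZBP1 double mutants (horizontal axis), against -log10 of the unadjusted limma p (vertical axis) for 19494 genes (points), with Defa genes in red and Gsdmc genes as orange squares. The 22 Defa genes lie between 0.91 and 4.06 and the 4 Gsdmc genes between 1.53 and 1.62.

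Flanking DNA can stay with a targeted allele through breeding, so genes near the targeted loci were counted. Within 10 Mb of Zbp1 on chromosome 2, 5 of 230 genes were called (2.17%), and within 10 Mb of Ripk3 on chromosome 14, 7 of 266 (2.63%), both near the 2.02% of all genes. Near Fadd on chromosome 7, whose alleles both groups share, 0 of 157 were called in limma, with 25 at an unadjusted p under 0.05, where 15.4% of all genes were. Near Ripk3 the largest was ccdc198, with 8.16, 8.22, 8.62, 8.10 and 7.92 in the RIPK3 double mutants, against 7.45, 6.09, 6.45, 6.81 and 5.43 in the ZBP1 double mutants. It was 3.38-fold higher without overlap (1.76 ± 0.33, limma, adjusted p = 0.00172), and Fadd fl/fl, at 8.18 ± 0.34 (SD, n = 5), lay with the RIPK3 double mutants. Slc7a8, described above, and Armh4 (0.55 ± 0.13) rose in the same window. Near Zbp1 the largest was R3hdml (-0.81 ± 0.19, limma, adjusted p = 0.0182; lost without RIPK3 replicate 4 or ZBP1 replicate 2, 3 or 5, adjusted p up to 0.0624), and Helz2, an interferon-induced helicase gene, differed by -0.56 ± 0.14 (lost without RIPK3 replicate 4 or 5 or ZBP1 replicate 1, 3 or 5, adjusted p up to 0.106). The clock covariate left ccdc198 (1.31, 0.0521), Armh4 (0.55, 0.0549), R3hdml (-0.54, 0.199) and Helz2 (-0.55, 0.0886) uncalled. Among mice with high Y-linked genes ccdc198 (1.76, 0.0256), Armh4 (0.67, 0.024) and Helz2 (-0.71, 0.027) were called, and R3hdml was not (-0.72, 0.119).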

How the data were processed

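Total RNA from whole ileum was measured on 45 microarrays with a WT PLUS kit, per the labels' protocols. The table held log2 intensities per probe that the authors had normalized before they deposited it. Per the submitters' processing notes the tools were Affymetrix Expression Console and Transcriptome Analysis Console, without versions, and how probes were summarized is not given in the sources used here. Array medians lay between 6.357 and 6.443, and no arrays were identical. The number of arrays, 5 mice per group, limits the precision.

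Of 22142 probes, 19527 had 1 gene symbol, 0 several and 2615 none. For 33 genes with more than 1 probe the brightest on average was taken, which left 19494 genes. A RefSeq table of GRCm38.p6 gave names, neighbours and promoter windows. limma 3.58.1 in R 4.3.3 fitted group means to all 45 arrays (9 groups, 36 residual degrees of freedom), and p-values were adjusted by Benjamini-Hochberg over 19494 genes, with calls at an adjusted p under 0.05. The labels do not say whether mice of a group were littermates, and p-values measure the spread between these mice. The script was tested on simulated data.

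The members and the 53 gene lists (836 distinct genes measured) were chosen with earlier results of these data known. Not all lists are described, nor are all genes that the rules below chose. Named by rule were the 5 targeted genes, the 15 largest rises and falls among called genes, up to 3 called members of a described list (or its brightest member), and the 5 largest calls near each targeted gene. Chosen after their values were seen were Lyz1, Itln1, Pnliprp2, Ang4, Mmp7, Gsdmc4, Gsdmc, Defa24, Defa27, Serpina1b, Serpina1a, Hao2, Slc15a1, Otc, Anxa3, Isg15, Nox1, Dbp, Clcn5, Adipoq, Slc16a10, Slc1a1, Ugt2b5, Serpinb5, Tnfrsf11b, Cry1, Per3 and Arntl. Alternatives were a fit of the 10 arrays, a covariate for the title-number series or for a sex index, other normalizations, a filter on dim genes (above the array median on at least 5 arrays), array weights, a variance trend, other uses of probes, and leaving out each mouse. Added after seeing the data were the clock covariate, setting apart the ZBP1 double mutants with low Y-linked genes, and leaving out FADD IEC-KO replicate 1, whose Fadd was near that of Fadd fl/fl. The sex index used Kdm5d, Eif2s3y and Uty alone, since Xist was not used here.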

Additional observations from a re-analysis of the deposited data

Results flagged for a closer look

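In 8 of 204 tests (102 chosen genes in each of the 2 groups, 3.92%), 1 mouse stood apart from the other 4 of its group by more than Dixon's 95% limit (0.71). Chance flags about 1 in 20. In the RIPK3 double mutants these were Clcn5 in replicate 5 (9.99, others 9.40 to 9.55), Serpinb5, a serpin, in replicate 5 (7.82, others 7.14 to 7.27), Tnfrsf11b, the decoy receptor osteoprotegerin, in replicate 4 (6.42, others 5.78 to 5.91), Armh4 in replicate 3 (5.42, others 5.61 to 5.66) and Fadd in replicate 2 (5.84, others 6.16 to 6.27). In the ZBP1 double mutants they were Hao2 in replicate 4 (6.60, others 4.86 to 5.27), S100a6 in replicate 1 (9.41, others 10.08 to 10.32) and Cry1, a clock repressor, in replicate 1 (6.97, others 7.20 to 7.26). The high Hao2 value lay below every RIPK3 double mutant, and the low S100a6 value overlapped with that group. Serpinb5 (-0.91 ± 0.20, limma, adjusted p = 0.00772) and Tnfrsf11b (-0.73 ± 0.19, adjusted p = 0.0305) were both lower in the RIPK3 double mutants. Cry1 differed by -0.47 ± 0.16 without passing the test (adjusted p = 0.103).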

How the results depend on the processing

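No paired analysis was possible because the titles share no numbers between the groups, and replicate numbers here only name mice. Against 394 called genes (283 higher, 111 lower), a fit of the 10 arrays called 68 (57, 11), leaving out dim genes 616 (426, 190) and the clock covariate, added after seeing the data, 97 (81, 16). Quantile normalization called 213 lower and array weights 70 lower. Leaving out 1 mouse gave 128 to 553 calls, 95 to 419 higher and 33 to 168 lower. Of 85 called genes followed through the alternatives, not all of them described here, 41 held in all 10 of those fits and 38 held with 10 arrays. With the sex index 66 held, in mice with high Y-linked genes 46 and with the clock covariate 25. Leaving out FADD IEC-KO replicate 1, also added after seeing the data, called 404 (287, 117), and 84 of the 85 held. Within title numbers under 100 (3 against 3 mice) 4 held and within 200 and over (2 against 2) 13 held. None reversed. Values near 0 changed sign without a call: Fadd was 0.01 with the sex index and 0.08 with array weights, and -0.14 to 0.05 on leaving out a mouse; Fabp6 was 0.02 within title numbers under 100 (-0.12 to 0.01 on leaving out a mouse). Mmp7 was 0.03 with the sex index, 0.04 within title numbers under 100, 0.10 in mice with high Y-linked genes and 0.23 with the clock covariate (-0.25 to 0.09 on leaving out a mouse). Adipoq was 0.11 within title numbers under 100. With the clock covariate, which is built from them, Per3 was -0.02 and Arntl 0.29. The sex index lacked Xist, which was not used here.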

Other observations

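Of 2615 probes without a gene symbol, 35 (1.34%) were called, 25 higher and 10 lower in the RIPK3 double mutants. The median SD over genes was 0.185 in the RIPK3 double mutants and 0.214 in the ZBP1 double mutants, and 11854 of 19494 genes (60.8%) had the larger SD in the ZBP1 double mutants. Arrays correlated across genes at a median of 0.988 within the RIPK3 double mutants, 0.983 within the ZBP1 double mutants and 0.983 between them.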
